A study of Mus musculus with 18 samples.

Results

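The 38 genes described here encode proteins of late G2 phase and mitosis, and they were chosen by name for those roles, with earlier results of these arrays known. The array carried 56 probes named for 37 of them, among 41174 probes in all, and no probe was named for Prc1, whose protein bundles the microtubules of the central spindle. To be tested, a probe had to be well above background throughout 1 or more of the groups of 3 arrays, and the brightest tested probe stood for its gene. That left 36 of the genes among 17721 tested. Anln, which encodes a scaffold of the contractile ring, was not tested, since its probes were above background on only 1 and 2 of the 18 arrays.

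Total RNA from livers of female mice aged 6 weeks was measured on single-colour arrays, 3 in each of 6 groups. The Nrf1 line, of mixed strain, compared Nrf1(dN/-)::Alb-Cre mice, labelled Nrf1 CKO, with Nrf1(dN/+) mice, so the dN allele was present in both groups and the label of the control names no Cre. The albumin promoter drives that Cre in hepatocytes, while the other cells of the liver are in the sample too. The Nrf2 line, in C57BL/6, compared Nrf2(-/-) mice, labelled Nrf2 KO, with Nrf2(+/+) mice. The Keap1 line, of mixed strain, compared Keap1(Kd/-) mice, labelled Keap1 KD, with Keap1(Kd/+) mice, which carry the Kd allele as well. Nrf1 and Nrf2 both act as transcription factors at antioxidant response elements, and Keap1 marks Nrf2 for degradation. Nothing in the labels states that each sample is a separate mouse. The p-values therefore measure the spread among samples, which may be technical.

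Cells make most of these transcripts only from S phase to the end of mitosis. In resting cells the DREAM complex holds their promoters silent, and in G2 the B-MYB and MuvB complex and the factor FOXM1 activate them, largely through a cell cycle homology region (CHR) and CCAAT boxes bound by NF-Y. Hepatocytes of the adult liver are mostly quiescent, and dividing cells in a young liver can also be Kupffer, stellate, endothelial or blood-forming cells. In whole tissue, fewer cells of a type and less RNA per cell cannot be told apart.

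The promoters of these genes share the letters through which that control is known to act. RefSeq promoter windows on the GRCm38.p6 assembly, 250 bases before to 50 bases after the start, were found for 31 of the 38 genes. The letters CCAAT, read on both strands, stood in 24 of the 31 windows (77.4%), against 37.9% of 27025 windows of the same length. A CHR, searched as TTTGAA or TTCGAA on both strands, stood in 24 windows as well (77.4%), against 19.4% of all windows. Both stood together in 21 windows (67.7%), against 7.7% of all, and a base can belong to both motifs. The letters TTTGGCGC, a form of the E2F site, stood in 0 of the 31 windows and in 0.537% of all. A match is a run of letters and not a measured binding site.

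The stretches from 130 bases before to 30 bases after the start follow here for 6 genes whose values are described further on, with CCAAT boxes and CHRs of either strand in capitals, because they show how differently the motifs are laid out in genes that moved together. They lie at chr9:70421525-70421684 for Ccnb2, chr4:118437314-118437473 for Cdc20, chr10:69352883-69353042 for Cdk1, chr11:99024160-99024319 for Top2a, chr13:100786457-100786616 for Ccnb1 and chr7:135716350-135716509 for Mki67, all on the minus strand and printed 5′ to 3′ along the gene.
Ccnb2: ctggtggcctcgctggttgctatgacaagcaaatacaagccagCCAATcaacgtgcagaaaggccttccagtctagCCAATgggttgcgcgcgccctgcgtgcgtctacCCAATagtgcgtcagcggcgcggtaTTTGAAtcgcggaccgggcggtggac
Cdc20: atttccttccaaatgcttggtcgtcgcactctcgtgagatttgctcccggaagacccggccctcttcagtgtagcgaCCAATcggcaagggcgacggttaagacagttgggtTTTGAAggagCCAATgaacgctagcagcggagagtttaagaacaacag
Cdk1: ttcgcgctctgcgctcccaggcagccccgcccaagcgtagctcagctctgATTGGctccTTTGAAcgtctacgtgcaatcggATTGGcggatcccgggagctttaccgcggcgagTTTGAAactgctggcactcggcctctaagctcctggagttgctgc
Top2a: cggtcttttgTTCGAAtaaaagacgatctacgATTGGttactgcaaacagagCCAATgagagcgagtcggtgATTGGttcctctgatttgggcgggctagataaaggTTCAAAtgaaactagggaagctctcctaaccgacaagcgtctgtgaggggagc
Ccnb1: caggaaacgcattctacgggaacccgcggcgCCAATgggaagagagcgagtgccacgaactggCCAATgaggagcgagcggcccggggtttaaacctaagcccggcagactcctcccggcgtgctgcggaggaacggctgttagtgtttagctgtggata
Mki67: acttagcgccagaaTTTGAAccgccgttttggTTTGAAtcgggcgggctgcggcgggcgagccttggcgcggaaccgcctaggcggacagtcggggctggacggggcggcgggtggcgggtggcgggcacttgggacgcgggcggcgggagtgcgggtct
Ccnb2 has 3 CCAAT boxes and 1 CHR in the printed stretch, Cdc20 has 2 and 1, Cdk1 has 2 and 2, and Top2a has 3 and 2. Ccnb1 has 2 CCAAT boxes and no CHR, and Mki67 has 2 CHRs, with its CCAAT boxes further upstream than the stretch shown. The windows of Birc5, Melk, Nuf2 and Nusap1 held neither motif.

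Levels below are log2 of the background-subtracted signal minus log2 of the array's 75th percentile over all non-control spots, so a level of 0 is the signal at that percentile. A gene was called where limma gave a Benjamini-Hochberg adjusted p under 0.05 over all 17721 genes, and rose or fell is written of called genes only. Between 49.95% and 65.04% of non-control spots were well above background on an array, and no spot of the 18 arrays was saturated. The genes named by the genotypes matched their labels. Nfe2l1, which encodes Nrf1, stood at 3.93, 3.65 and 3.59 on the Nrf1 controls and at -6.33, -6.67 and -6.33 on the CKO arrays, where it was not well above background on any, which is at least 470.3-fold lower. Nfe2l2, which encodes Nrf2, was lower by 8.20 (log2, SE 0.48) in Nrf2 KO, where 1 of 3 arrays was above background, and Keap1 was lower by 2.39 (SE 0.31) in Keap1 KD. The tissue label held too, since 11 hepatocyte markers summed to at least 2625 times the 75th percentile signal on every array.

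In Nrf1 CKO liver the mitotic genes were higher across all roles, from the cyclins that start mitosis to the proteins that part the daughter cells. Of the 36 tested, 28 rose and 0 fell, where 7.96% of all genes tested rose and 11% fell. The log2 difference was above 0 for all 36, as for 42.5% of all genes, and for 34 of them every CKO array lay above every control array, as for 15.2% of all genes; the 2 exceptions were Bub1 and Kif23. A gene can pass the filter through the mutant group alone, so the size was taken over the 27 genes above background on all 3 Nrf1 controls. Their median log2 difference was 1.94, with a range of 0.38 to 2.58, against a median of -0.094 over all genes tested, and 23 of the 27 rose, where 6.94% of all genes above background on those controls did.

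The 6 arrays of this line lay on 2 slides. Control 1 and 2 lay on slide 1, which held no CKO array, and Control 3 lay with all 3 CKO arrays on slide 2. A slide block therefore sets the 3 CKO arrays against Control 3 alone, so its lack of calls rests on 1 control. With slide as a block none of the 36 genes was called (adjusted p 0.10 to 0.85), 27 had an unadjusted p under 0.05 with CKO higher, as for 8.13% of all genes, the log2 differences ran from -0.09 to 2.17 with 35 above 0, and 65 of all genes tested were called. The blocked differences are those within the shared slide, where the 3 CKO arrays exceeded Control 3 by a median of 1.57 over the 36 genes. Bub1 was the 1 gene below 0, and the median over all genes was -0.11. Control 3 was the highest of the 3 controls for 28 of the 36 genes. The calls below are from the fit without the slide, and the number called also fell to 14 without Control 1, 18 without CKO 2 and 15 without CKO 3.

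**Figure D1:**
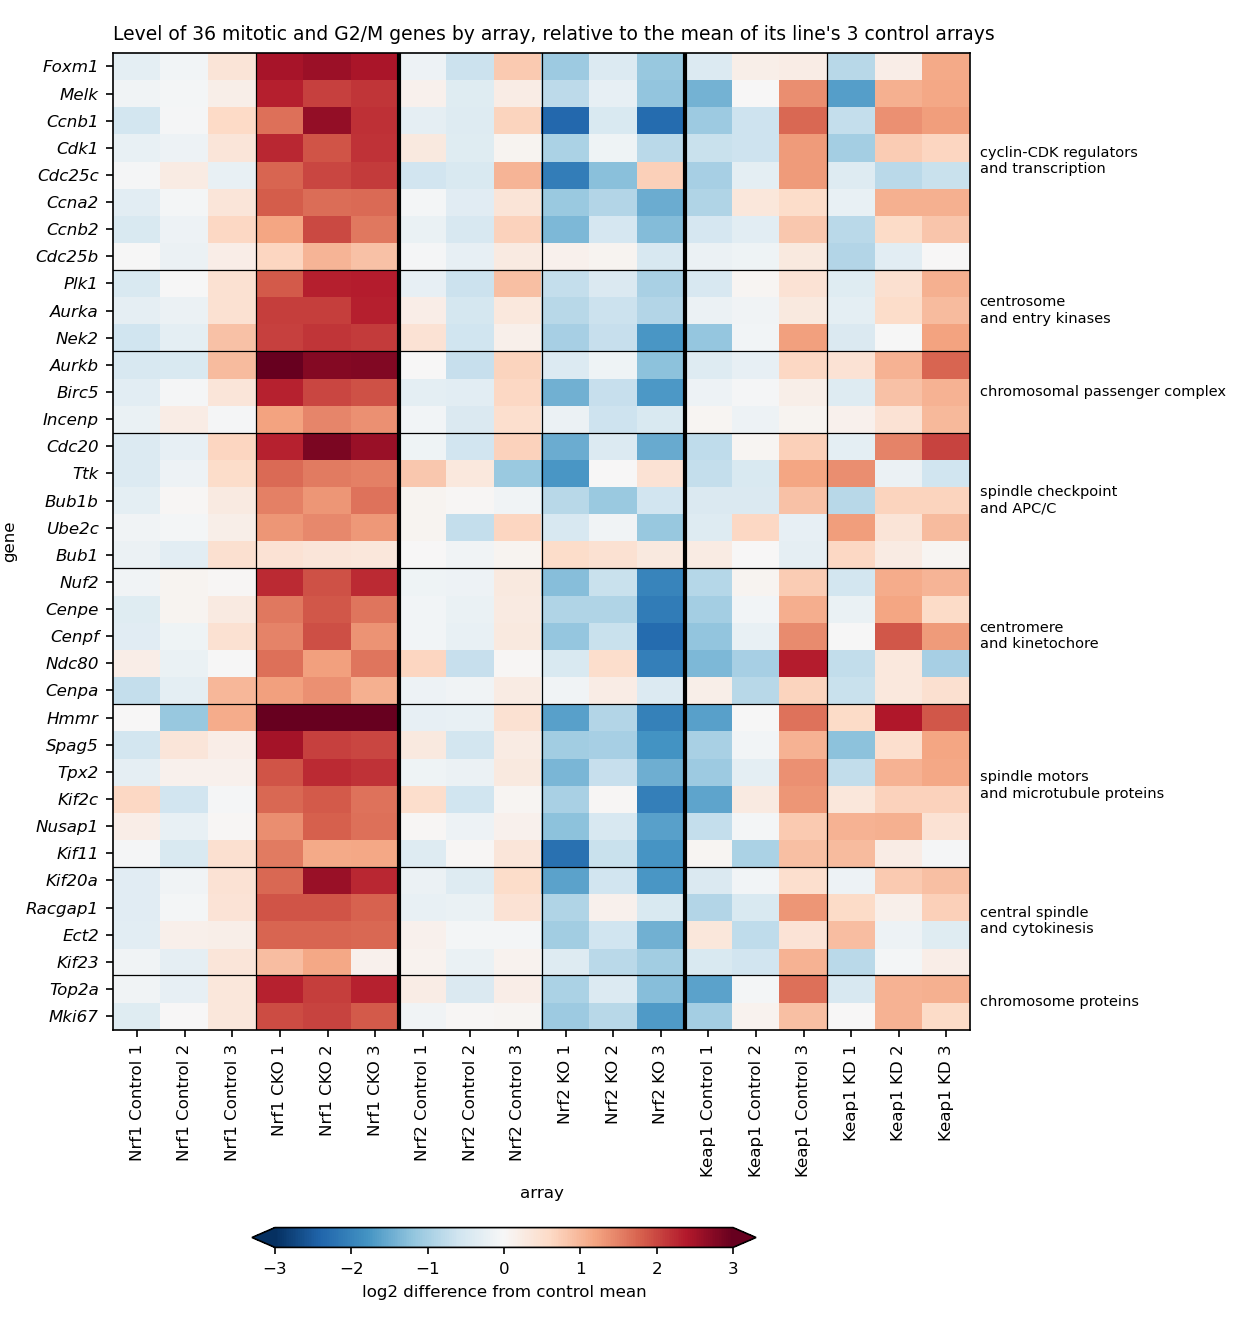
Heat map of 36 mitotic and G2/M genes (rows, grouped by role) on 18 arrays (columns), coloured by the log2 difference from the mean of the same line's 3 control arrays, with the scale ending at -3 and 3. The 3 Nrf1 CKO columns are red in nearly every row, the Nrf2 KO columns are mostly blue, and the Keap1 columns, controls included, differ from array to array.

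All 8 tested cyclin-CDK regulators rose, but most calls did not hold whenever an array of the line was left out. Of the 6 such fits, Ccna2 and Foxm1 were called in 6 and Cdk1 in 4. Ccnb2 and Cdc25b were called in 2, Ccnb1 in 1, and Melk and Cdc25c in 0. Ccnb1 and Ccnb2 encode the B-type cyclins that activate Cdk1 at the start of mitosis. Ccnb2 stood at 0.12, 0.44 and 1.21 on the controls and at 1.78, 2.58 and 2.16 on the CKO arrays, a log2 difference of 1.58 (SE 0.47, adjusted p = 0.0296). The Ccnb1 levels were -3.62, -3.12 and -2.48 in controls and -1.43, -0.43 and -0.88 in CKO, higher by 2.16 (SE 0.72, adjusted p = 0.0477). Both genes had their highest control level on Control 3, and in both the groups did not overlap. Cdk1, the mitotic kinase itself, stood at -2.71, -2.64 and -2.14 on the controls and at -0.23, -0.62 and -0.33 on the CKO arrays, 4.30-fold higher (log2 2.10, SE 0.50, adjusted p = 0.0111). For Foxm1, which encodes the activator of the G2/M genes, the controls gave -3.41, -3.20 and -2.73 and the CKO arrays -0.65, -0.54 and -0.67, a 5.64-fold rise (log2 2.49, SE 0.42, adjusted p = 0.00237). The SD of Foxm1 was 0.073 in CKO and 0.35 in the controls. Ccna2, the cyclin of S and G2 phase, rose by 1.73 (SE 0.38) and the kinase gene Melk by 2.18 (SE 0.67). The phosphatase gene Cdc25b, whose product activates cyclin-bound CDKs, rose by 0.84 (SE 0.24). A second Cdc25b probe, above background on every array of the line, gave 0.46 (SE 0.21). Cdc25c, a second such phosphatase, passed the test (adjusted p = 0.0430), but no control array was above background and its signal set no fold above 1.

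The 3 kinases of mitotic entry and the centrosome rose to a similar degree. Aurka, which matures the centrosomes, stood at -0.70, -0.62 and 0.03 on the controls and at 1.63, 1.63 and 1.90 on the CKO arrays (log2 2.16, SE 0.30, adjusted p = 0.000737). Plk1, the Polo-like kinase that drives mitotic entry, rose by 2.18 (SE 0.41), and Nek2, which separates the centrosomes, by 2.10 (SE 0.55).

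The chromosomal passenger complex corrects the attachment of chromosomes to the spindle, and its 3 tested subunits rose. Birc5, which encodes survivin, stood at 0.46, 0.74 and 1.16 on the controls and at 3.11, 2.80 and 2.69 on the CKO arrays (log2 2.08, SE 0.36, adjusted p = 0.0027). The lowest CKO array was above the highest control by a wide margin. Aurkb, its kinase, was not above background on any control and was at least 3.47-fold higher in CKO (adjusted p = 0.00149), and Incenp, its scaffold, rose by 1.35 (SE 0.24).

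Of 5 genes of the spindle checkpoint and the anaphase-promoting complex, 3 rose. Cdc20, the activator of that complex, stood at -0.61, -0.46 and 0.43 on the controls and at 2.10, 2.60 and 2.38 on the CKO arrays, 5.96-fold higher (log2 2.58, SE 0.54, adjusted p = 0.00647). Bub1b, which encodes the checkpoint protein BubR1, rose by 1.48 (SE 0.38), and Ube2c, the complex's ubiquitin-conjugating enzyme, by 1.35 (SE 0.35). Ttk, the checkpoint kinase Mps1, was not called (adjusted p = 0.0987), had no control above background and set no fold above 1. Bub1, another checkpoint kinase, was not called either, with a log2 difference of 0.38 (SE 0.20), but its probes disagreed. The brighter probe gave that value, while a dimmer one, not above background on any control, gave 2.36 (SE 0.38).

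In the centromere and kinetochore group, 2 of 5 rose. Cenpe, a kinetochore motor, stood at -0.70, -0.26 and -0.07 on the controls and at 1.24, 1.52 and 1.27 on the CKO arrays (log2 1.68, SE 0.46, adjusted p = 0.0214). A dimmer Cenpe probe, not above background on any control, gave 0.87 (SE 0.53). Nuf2, a subunit of the microtubule-binding Ndc80 complex, rose by 2.13 (SE 0.44). The other 3 missed the threshold while their groups did not overlap. They were Cenpa, the centromeric histone, at 1.23 (SE 0.43, adjusted p = 0.0563), Cenpf at 1.58 (SE 0.58, adjusted p = 0.0678), and Ndc80 (adjusted p = 0.19). Ndc80 had no control above background. Its CKO mean was at least 2.13-fold above the control mean, a bound that leaves out the spread between arrays.

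Among spindle motors and microtubule proteins, 4 of 6 rose. Nusap1, which bundles spindle microtubules, stood at -2.57, -2.99 and -2.72 on the controls and at -1.37, -0.98 and -1.12 on the CKO arrays (log2 1.61, SE 0.33, adjusted p = 0.00595). Hmmr, a spindle-associated hyaluronan receptor, had the largest measured difference of the 36, 3.15 (SE 0.69, adjusted p = 0.00803), with 1 of 3 controls above background. Tpx2, an activator of Aurora A on the spindle, rose by 2.10 (SE 0.53) and Spag5 by 2.18 (SE 0.55, 2 of 3 controls above background). The motor genes Kif11 (adjusted p = 0.0573) and Kif2c (adjusted p = 0.0554) were not called. For Kif11 the CKO mean was at least 1.49-fold above the control mean, a bound that leaves out the spread between arrays. Kif2c was at 1.74 (SE 0.60), with 1 of 3 controls above background.

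Cytokinesis genes rose in 3 of 4 cases. Ect2, which is needed to form the cleavage furrow, stood at -1.84, -1.37 and -1.35 on the controls and at 0.22, 0.23 and 0.21 on the CKO arrays (log2 1.74, SE 0.34, adjusted p = 0.00456). The 3 CKO values of Ect2 were almost the same, with an SD of 0.012. Kif20a, a motor of the central spindle, rose by 2.19 (SE 0.39). Racgap1, which recruits Ect2, rose by 1.85 (SE 0.43), with 1 of 3 controls above background. Kif23, its partner motor, was not called at 0.74 (SE 0.39), and its groups overlapped.

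Both chromosome proteins rose. Mki67, which encodes the proliferation marker Ki-67, stood at 0.01, 0.38 and 0.70 on the controls and at 2.32, 2.39 and 2.21 on the CKO arrays, 3.85-fold higher (log2 1.94, SE 0.38, adjusted p = 0.00479). A second Mki67 probe gave 1.73 (SE 0.42). Top2a, the topoisomerase that untangles sister chromatids, stood at -4.12, -4.27 and -3.68 and at -1.71, -1.95 and -1.72, a difference of 2.23 (SE 0.60, adjusted p = 0.0194). The CKO arrays were close together for both genes.

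**Figure D2:**
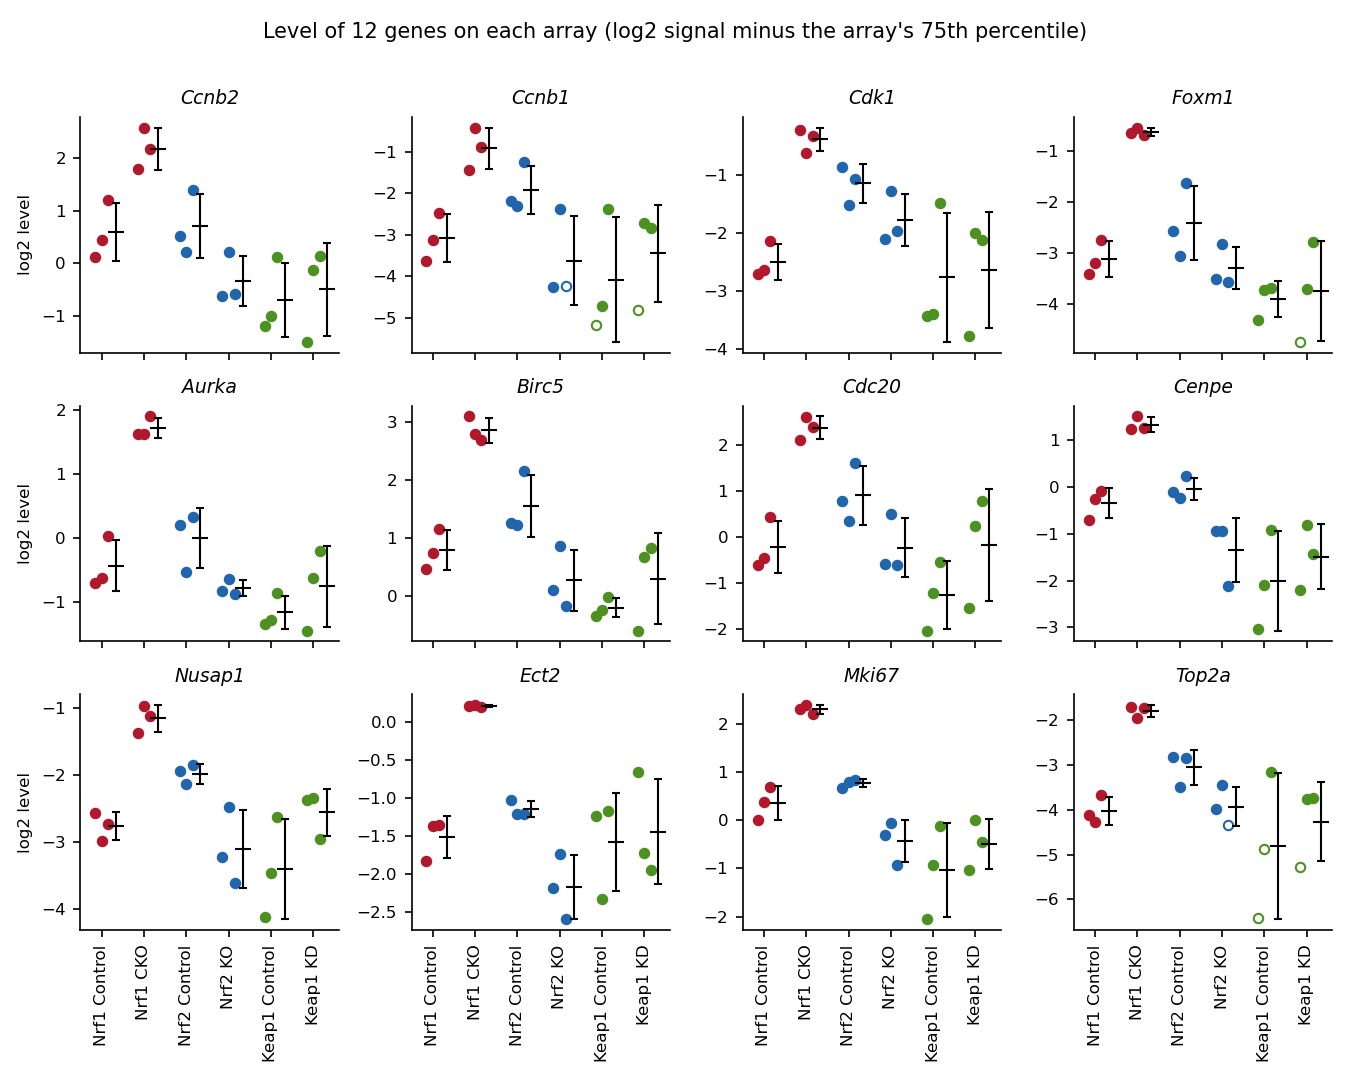
Log2 level of 12 genes on each of 18 arrays, 1 panel a gene, with 3 points a group in the order of replicate number (open where the probe was not well above background) and a bar at the mean with the SD of 3 arrays. In every panel the 3 Nrf1 CKO points lie above the 3 Nrf1 controls, and the Keap1 groups have the widest bars in most panels.

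**Figure D3:**
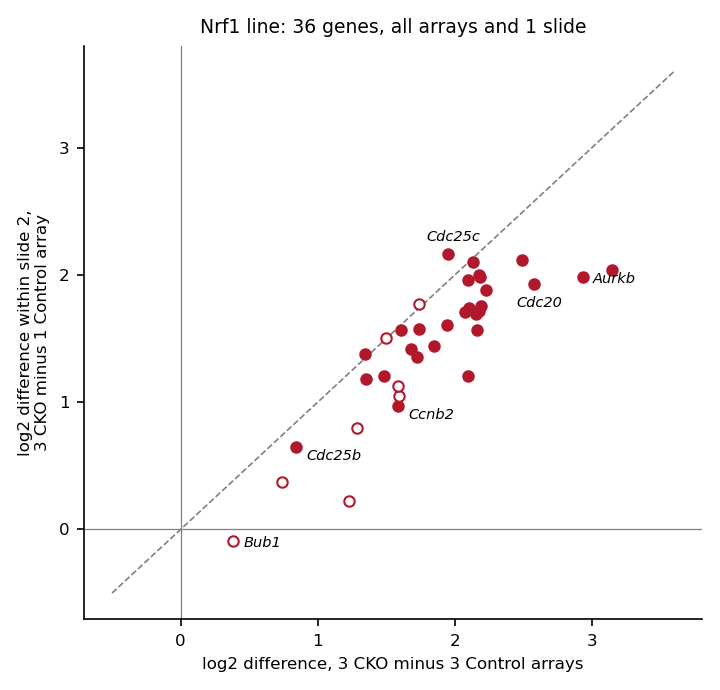
Log2 difference in the Nrf1 line for 36 genes, over all 6 arrays (horizontal axis) and within slide 2, 3 CKO arrays against 1 control (vertical axis), filled where called in the fit without the slide; the dashed line marks equal values. Most points lie below the line, with medians of 1.90 and 1.57, and Bub1 alone lies below 0 within the slide.

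Other genes of cell division moved with them in the Nrf1 line. Of 52 tested genes on a list of other mitotic genes, 33 rose and 0 fell (median 1.67). Among those that rose were Pbk, a mitotic kinase gene, at 2.96 (SE 0.65), Ckap2, for a spindle protein, at 2.93 (SE 0.61, 1 of 3 controls above background), Cdkn3, for a CDK phosphatase, at 2.90 (SE 0.60), and Ska3, of the kinetochore, with no control above background, by at least 2.13-fold. Of 24 genes of S phase and replication, 17 rose and 1 fell (median 1.45). Over all genes tested, 7.96% rose and 11% fell, and the median was -0.094. Neither list was limited to genes above background on the controls, so a gene could enter through the CKO arrays alone. Cdc6, which loads the replicative helicase, was at least 6.25-fold higher, Uhrf1, which maintains DNA methylation, rose by 3.29 (SE 0.34), and the helicase genes Mcm5 and Mcm2 by 2.60 (SE 0.46) and 2.26 (SE 0.39).

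In 3 further lists of cell cycle regulators, 1 of 7, 1 of 12 and 5 of 18 genes were called, where 19% of all genes were called in either direction. Among 7 G1 cyclins and kinases only Cdk6 was called, higher by 0.95 (SE 0.22), and among 12 CDK inhibitors and G2 brakes only Ccng1, a p53 target gene, higher by 1.20 (SE 0.22). Of 18 subunits of the E2F, MYB-MuvB and DREAM complexes, 3 rose, E2f2 by 1.46 (SE 0.40), E2f1 by 1.34 (SE 0.26) and the pocket protein gene Rbl1 by 1.16 (SE 0.21). In the same list 2 fell, the pocket protein gene Rbl2 by 1.20 (SE 0.29) and Tfdp2 by 0.95 (SE 0.21). The difference in calls between the lists was not tested.

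Markers of some liver cell types moved in the same comparison, and their part in the mitotic result was not tested. The counts below stand beside 7.96% of all genes tested that rose and 11% that fell. Of 12 stellate cell markers 10 rose, and their summed linear level was 82.7 to 108 on the controls and 126 to 178 on the CKO arrays. Macrophage markers rose for 5 of 12 and fell for 1, with sums of 106 to 199 and 199 to 420. Hepatocyte markers fell for 5 of 11 (4386 to 5217 against 2625 to 3653), and the erythroid sum was 293 to 325 against 150 to 168, with 1 of 7 genes called lower. Of 10 endothelial genes 1 fell, of 9 lymphocyte genes and 4 pancreatic genes 1 rose each, and of 8 cholangiocyte and 6 neutrophil genes none was called. Cd79a, Elane, Ermap and Cpa1, markers of B cells, neutrophil precursors, erythroid cells and pancreas, were not above background on any array. The tested genes of the same lists were well above background throughout 1 or more groups.

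In Nrf2 KO liver the same genes leaned the other way, but none passed the test. Of the 36, 0 rose and 0 fell, where 0.00564% and 0.0564% of all genes tested did, which is 1 and 10 genes. The log2 difference was below 0 for 35 of 36, as for 49.2% of all genes, 17 had an unadjusted p under 0.05 with KO lower, as for 5.12% of all genes, and the median over the 29 genes above background on all 3 Nrf2 controls was -1.05, against 0.006 over all genes. For 19 of the 36 every KO array lay below every control, as for 11.1% of all genes, and for Bub1 every KO array lay above, as for 9.75%, while its dimmer probe, not above background on any array of this line, gave -1.75 (SE 0.38).

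Birc5 had the smallest adjusted p of the 36 (0.298), at 1.26, 1.23 and 2.17 on the Nrf2 controls and 0.10, 0.86 and -0.17 on the KO arrays, a difference of -1.29 (SE 0.36). Mki67 stood at 0.68, 0.80 and 0.84 and at -0.31, -0.06 and -0.92 (-1.21, SE 0.38, adjusted p = 0.353). Neither gene's groups overlapped. Nusap1 stood at -1.95, -2.14 and -1.85 and at -3.22, -2.47 and -3.61 (-1.12, SE 0.33, adjusted p = 0.31). Cenpe stood at -0.11, -0.22 and 0.23 and at -0.94, -0.95 and -2.13 (-1.30, SE 0.46). For Ect2 the values were -1.02, -1.20 and -1.21 against -2.20, -1.74 and -2.59 (-1.03, SE 0.34). In all 3 of these genes KO 3 was the lowest array.

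The SDs on the control and KO arrays were 0.58 and 1.08 for Ccnb1 and 0.61 and 0.47 for Ccnb2, against 0.53 and 0.54 for Birc5. Ccnb1 stood at -2.18, -2.31 and -1.25 on the controls and at -4.26, -2.38 and -4.23 on the KO arrays, the last not above background (-1.71, SE 0.72, adjusted p = 0.515). Ccnb2 stood at 0.51, 0.22 and 1.40 and at -0.63, 0.21 and -0.58 (-1.05, SE 0.47). KO 2 was near or level with the lowest control in both. Aurka stood at 0.21, -0.53 and 0.33 and at -0.83, -0.64 and -0.87 (-0.78, SE 0.30). Among the 12 genes given array by array, 4 overlapped between the groups: Cdk1, at -0.86, -1.52 and -1.07 against -2.11, -1.27 and -1.97, Foxm1, at -2.56, -3.06 and -1.63 against -3.50, -2.82 and -3.56, Cdc20, and Top2a. Cdc20 stood at 0.78, 0.34 and 1.60 on the controls and at -0.59, 0.50 and -0.60 on the KO arrays. Top2a stood at -2.82, -3.49 and -2.85 and at -3.99, -3.45 and -4.33, the last not above background.

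No slide and no scan day held both Nrf2 groups: the 3 controls shared slide 3 and the KO arrays lay on slides 4, 5 and 6. With slide as a block, which joins the groups only through Keap1 arrays on the same slides and takes nothing from KO 1, alone on its slide, the median was -1.35 and 0 genes were called. KO 2 was the highest KO array for 28 of the 36 genes and KO 3 the lowest for 27. The erythroid sum was 391 to 487 on the controls and 195 to 345 on the KO arrays with 0 of 7 genes called, and its part in the lower values was not tested. None of the 52 other mitotic genes (median -0.58) and none of the 24 S phase genes (median -0.25) was called.

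In Keap1 KD liver the mitotic genes varied widely between arrays of a group, with a median SD of 0.85 in the control and 0.71 in KD, and none passed the test. Of the 36, 0 rose and 0 fell, where 0.965% and 4.59% of all genes tested did, and 5 had an unadjusted p under 0.05 with KD higher, as for 5.38% of all genes. The median over the 22 genes above background on all 3 Keap1 controls was 0.40, against 0.002 over all genes, and 32 of the 36 lay above 0, as did 50.3% of all genes. The groups were separate for Incenp alone, as for 5.57% of all genes with KD higher, at 0.51 (SE 0.24, adjusted p = 0.293). Control 3 was the highest control for 34 of 36 genes and had the largest share of spots above background of all arrays (65.04%), while KD 1 was the lowest KD array for 27 and had the smallest (49.95%); their part in the result was not tested. Without Control 1, the lowest control for 29 genes, the median was 0.14.

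Mki67 stood at -2.06, -0.92 and -0.13 on the Keap1 controls and at -1.03, 0.01 and -0.46 on the KD arrays (0.54, SE 0.38, adjusted p = 0.557). Cdc20 ran from -2.03 through -1.20 to -0.54 in controls and gave -1.54, 0.23 and 0.78 in KD (1.08, SE 0.54, adjusted p = 0.341). The control range of Mki67 took in 2 of its 3 KD values. Nusap1 had the smallest adjusted p of the 36 (0.185), at -4.12, -3.46 and -2.63 against -2.37, -2.35 and -2.96 (0.85, SE 0.33). Birc5 stood at -0.35, -0.25 and -0.03 and at -0.61, 0.67 and 0.83 (0.51, SE 0.36), and Aurka at -1.34, -1.27 and -0.86 and at -1.45, -0.62 and -0.20 (0.40, SE 0.30). For both, KD 1 lay below every control and the other KD arrays above.

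Ccnb2 stood at -1.20, -1.01 and 0.11 on the controls and at -1.50, -0.13 and 0.14 on the KD arrays (0.20, SE 0.47). Cdk1 stood at -3.43, -3.39 and -1.48 and at -3.78, -2.00 and -2.12 (0.13, SE 0.50). Foxm1 stood at -4.31, -3.73 and -3.68 and at -4.74, -3.70 and -2.77 (0.17, SE 0.42). KD 1 was the lowest of the 6 arrays in these 3 genes. Cenpe stood at -3.03, -2.09 and -0.91 and at -2.21, -0.82 and -1.43 (0.52, SE 0.46), and Ect2 at -1.24, -2.33 and -1.17 and at -0.65, -1.73 and -1.95 (0.14, SE 0.34). Ccnb1 stood at -5.17, -4.72 and -2.36 and at -4.80, -2.72 and -2.83 (0.64, SE 0.72), and Top2a at -6.41, -4.87 and -3.15 and at -5.28, -3.77 and -3.74 (0.55, SE 0.60). The lowest value of each group in the last pair of genes, and Control 2 for Top2a, were not above background.

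Within the slide that held 1 array of each Keap1 group, KD 3 and Control 3, the median difference was -0.18, with 15 genes above 0 and 21 below, and with slide as a block it was 0.50. Within a scan day that held KD 3 with Control 2 and 3 it was 0.58. Cdk6 rose by 0.79 (SE 0.22, adjusted p = 0.0459), the 1 call among the cell cycle lists here. Over all genes tested, 0.965% rose and 4.59% fell in this line. None of the 52 other mitotic genes (median 0.19) and none of the 24 S phase genes (median 0.09) was called. The erythroid sum ran from 162 to 933 on the controls and from 208 to 1722 on the KD arrays.

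**Figure D4:**
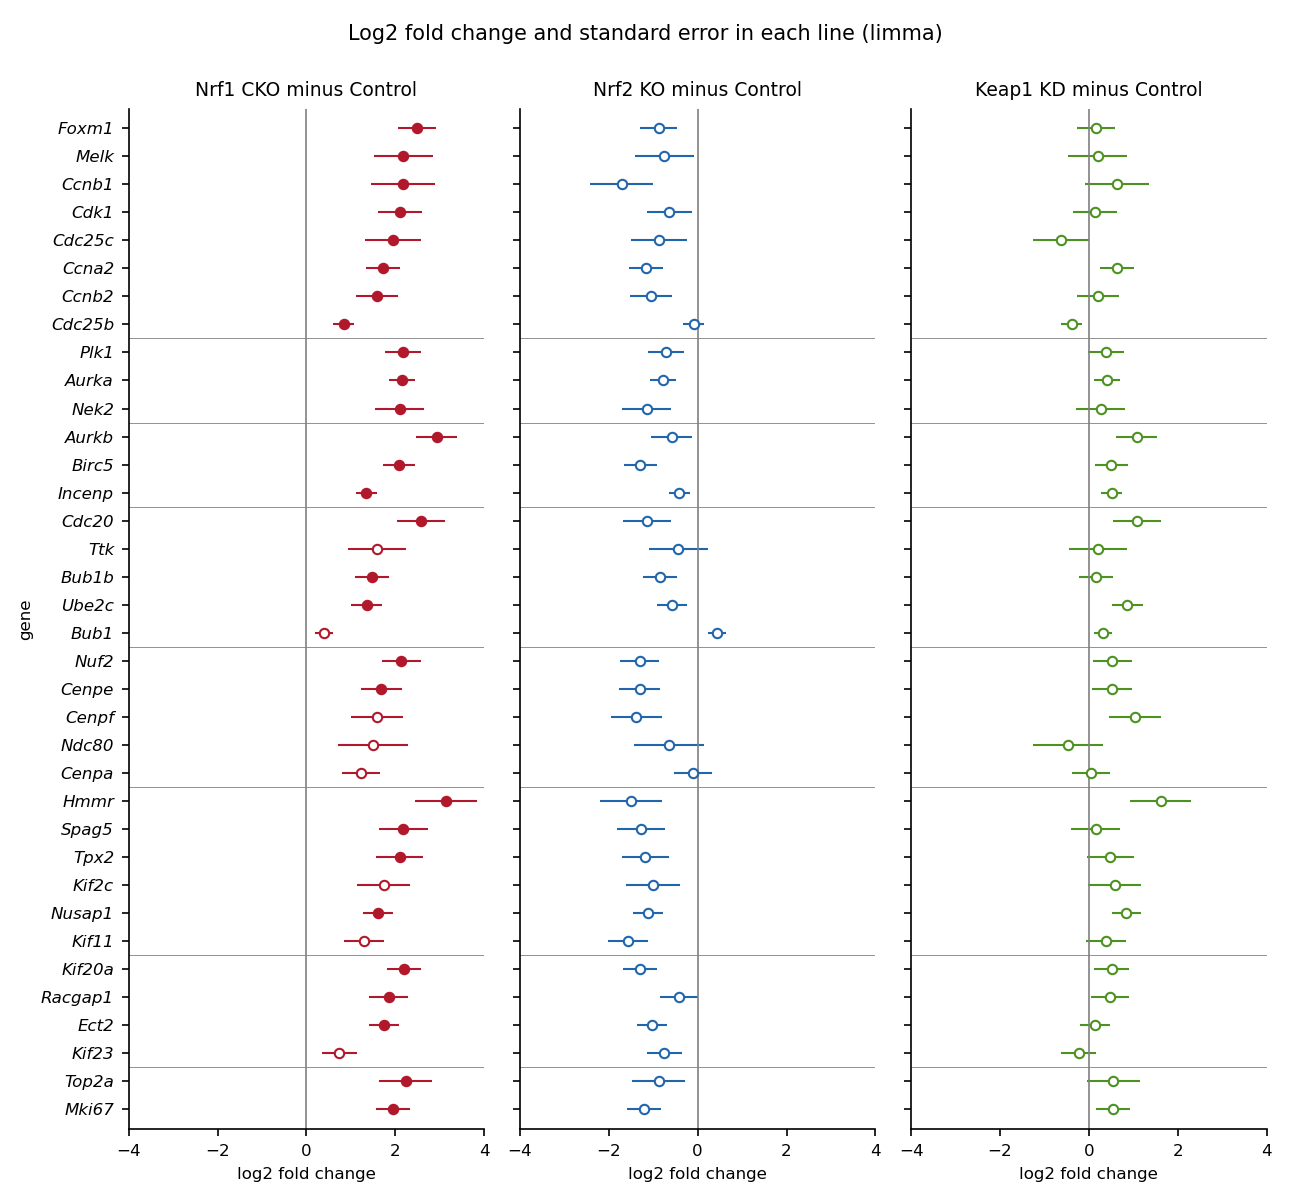
Log2 fold change of 36 genes in the Nrf1, Nrf2 and Keap1 lines, with the standard error of the limma fit as bars and filled points where called; in the Nrf1 line Aurkb, Cdc25c, Ttk, Ndc80 and Kif11 had no control array above background. The Nrf1 points all lie above 0 and 28 are filled, 35 of 36 Nrf2 points lie below 0, and the Keap1 points straddle 0 with 32 above it.

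The difference between the Nrf1 and Nrf2 effects passed the test for 27 of the 36 genes, all with the larger value in the Nrf1 line, where 3.02% of all genes did in that direction. Over the 22 genes above background on all 9 controls it passed for 18, where 2.81% of all such genes did. It was 3.71 for Cdc20 (SE 0.77, adjusted p = 0.0152), 2.94 for Aurka (SE 0.42, adjusted p = 0.0025) and 3.15 for Mki67 (SE 0.54, adjusted p = 0.0077). The 9 genes without a call were Cdc25b, Cdc25c, Melk, Ttk, Bub1, Cenpa, Ndc80, Kif2c and Kif23. The Nrf1 effect exceeded the Keap1 effect for 3 genes, where 3.54% of all genes did. The 3 were Aurka, by 1.75 (SE 0.42, adjusted p = 0.0274), Foxm1, by 2.33 (SE 0.60, adjusted p = 0.0343), and Cdc25b, by 1.23 (SE 0.34, adjusted p = 0.0407). The second Cdc25b probe gave 0.46 (SE 0.21) in the Nrf1 line and -0.16 (SE 0.21) in the Keap1 line. For Ccnb1 the Nrf1 effect exceeded the Keap1 effect by 1.53, with a 95% interval of -0.64 to 3.69, so the arrays set no narrow limit on that difference. The Keap1 effect exceeded the Nrf2 effect for Nusap1, by 1.97 (SE 0.47, adjusted p = 0.0368), where 1% of all genes did. With slide as a block 0 genes were called in each of the 3 tests.

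Across all 6 groups the Nrf1 CKO mean was the highest for 34 of the 36 genes. The 3 CKO arrays lay above each of the 15 other arrays for 29 genes, as for 4.79% of all genes tested. Some of these genes entered the test through the CKO arrays alone; over the 22 above background on all 9 controls it held for 19, as for 4.36% of all genes that met the same condition. The exceptions among the 36 were Ccnb1, Cdc25c, Ttk, Bub1, Cenpa, Ndc80 and Kif23. Among the 3 control groups the highest mean was in the Nrf2 control for 33 genes and the lowest in the Keap1 control for 31, so the lines did not start from the same level. The strain label (C57BL/6 in the Nrf2 line, mixed in the others), the slides and the scan days differ in part between the lines, and their part in this order was not tested. On the slide that held Keap1 Control 1 with the 3 Nrf2 controls, Mki67 stood at -2.06 on the former and at 0.68, 0.80 and 0.84 on the latter. Keap1 Control 1 was the lowest Keap1 control for 29 of the 36 genes. On Keap1 Control 2 and 3, which lay on other slides, Mki67 stood at -0.92 and -0.13.

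The genes also tended to move together between arrays of the same group, taken over all groups. Their median SD within groups was 0.60, against 0.31 over all genes, and by group it ran from 0.18 in Nrf1 CKO and 0.35 in the Nrf1 control to 0.71 in Keap1 KD and 0.85 in the Keap1 control. After subtraction of the group means, the median Pearson correlation between 2 of the genes was 0.62 over the 18 arrays. Of 630 pairs, 554 were above 0. The arrays share signal scaling and the pairs share genes, so no p is given. No such correlation was computed for other genes, and the groups with the widest spread weigh most in it. Cdc20 had the highest median correlation with the others (0.80). Ect2 (-0.05), Bub1 (-0.19) and Ttk (0.01) had the lowest, and Ttk was above background on few arrays.

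**Figure D5:**
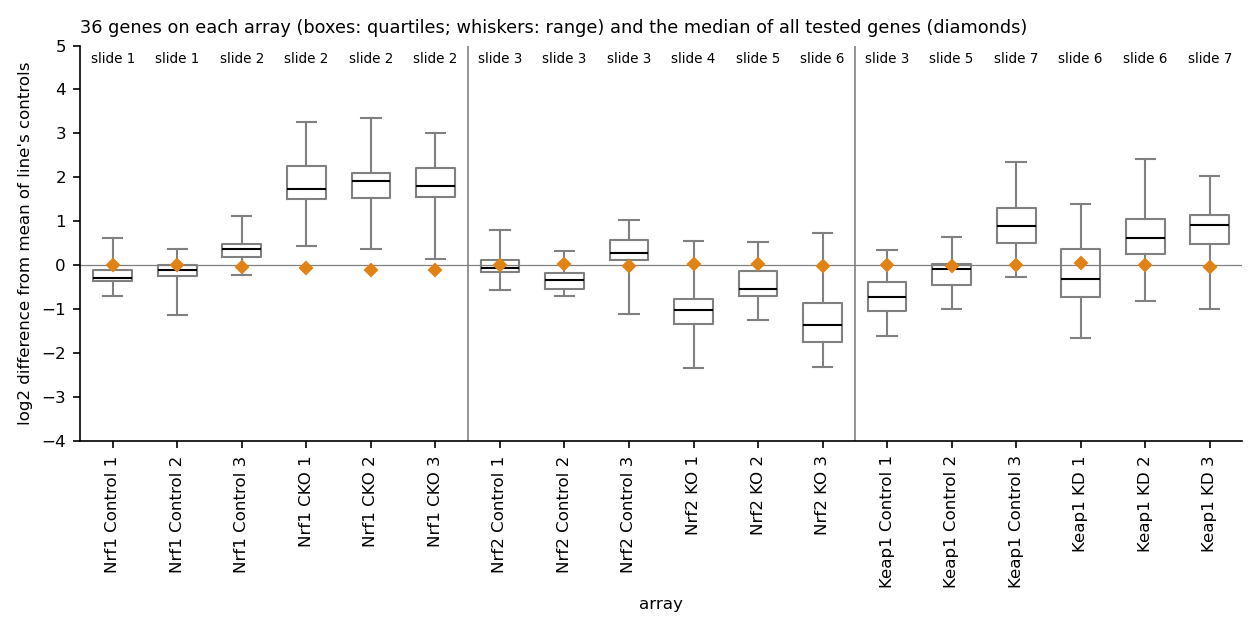
Spread over 36 genes of the log2 difference from the mean of the line's controls, for each of 18 arrays (box, quartiles with the median; whiskers, lowest and highest gene), with diamonds at the median of all genes tested and the slide number above. The Nrf1 CKO medians are 1.74, 1.92 and 1.81 and the Nrf2 KO medians -1.01, -0.54 and -1.37, while Keap1 Control 3 (0.88) lies as high as KD 3 (0.92); the diamonds stay near 0.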

How the data were processed

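Liver RNA from 18 samples, 3 in each of 6 groups given by the genotype label, was hybridised to 18 single-colour arrays. Per the file headers, the deposited processed signal is a background-subtracted, detrended intensity read with Agilent Feature Extraction 10.7.3.1, not normalized between arrays, and the deposited flags for control type, well above background, saturation and outliers are other output of the same software. The authors' deposited series table held the same processed intensity at all 810324 entries compared. Control and outlier spots were left out, the log2 intensity of a probe's spots was averaged, and log2 of the array's 75th percentile was subtracted. A symbol was found for 26718 of 41174 probes (64.9%) through RefSeq transcripts, symbols or synonyms. The array headers name another genome build than RefSeq's GRCm38.p6, so coordinates are given only for RefSeq promoter windows.

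A model with 1 mean for each group was fitted with limma 3.58.1 (R 4.3.3), using all 18 arrays, which leaves 12 residual degrees of freedom. It was used for each mutant against its own control and for the 3 differences between those effects, with Benjamini-Hochberg adjustment over 17721 genes. It was tested on simulated data. Of 200 genes changed by 2 on the log2 scale among 17670 genes, 88.5% were recovered in the Nrf1 line, 87% in the Nrf2 line and 89% in the Keap1 line. Of 200 changed by 1, 40.5%, 36% and 44% were. The changed genes were drawn at random from all genes, with independent noise and no slide effect. The mitotic genes had a larger median SD within groups (0.60 against 0.31), so these shares need not hold for them. Where the lower group had no array above background, the fold is a lower bound, written as at least, taking for each array the higher of the lowest signal well above background and the probe's own. The bound is on the difference between the measured group means and leaves out the spread between arrays.

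The genes and lists were chosen with earlier results of these data known. Array by array values are given for the brightest gene of each of 8 roles that was above background on all 9 controls, and for Mki67, Top2a, Ccnb1, Cdk1, Aurka and Foxm1. Of each other cell cycle list, up to 4 called genes with the largest fitted change are named; Tfdp2 and Mcm10 were named after their values were seen. Marker lists of 9 cell types were counted. Alternatives covered the scaling, background correction, filter, probe, model, blocks and left-out arrays. Replicate numbers did not pair the samples: the correlation of deviations of same-numbered arrays was 0.127, 0.121 and -0.017 in the Nrf1 line, -0.078, -0.051 and 0.052 in the Nrf2 line, and 0.101, -0.359 and 0.147 in the Keap1 line.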

Additional observations from a re-analysis of the deposited data

Results flagged for a closer look

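The differences between the lines' effects were tested directly (limma, adjusted over all genes tested). The Nrf1 effect exceeded the Nrf2 effect for 27 of 36 genes, against 3.02% of all genes. It exceeded the Keap1 effect for 3 (3.54% of all genes), and the Keap1 effect exceeded the Nrf2 effect for 1 (1% of all genes). With slide as a block 0 genes were called in each of the 3 tests. Of the genes given array by array, the log2 excess of the Nrf1 over the Nrf2 effect was 3.88 for Ccnb1, 3.71 for Cdc20, 3.38 for Foxm1, 3.37 for Birc5, 3.15 for Mki67, 3.104 for Top2a, 2.99 for Cenpe, 2.94 for Aurka, 2.77 for Ect2, 2.74 for Cdk1, 2.73 for Nusap1 and 2.63 for Ccnb2. Over the Keap1 effect it was 2.33 for Foxm1 and 1.75 for Aurka. The Keap1 effect of Nusap1 exceeded its Nrf2 effect by 1.97.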

How the results depend on the processing

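No alternative reversed the sign of the median in the Nrf1 or Nrf2 line, and the Nrf2 line had no called gene that could reverse. In the Nrf1 line 35 of 36 genes stayed above 0 under every alternative, and the exception, Bub1, was not called. That is a statement on the sign, since calls were lost. The 28 genes called there became 0 with slide as a block and 17 when probes had to be above background on all arrays, with fewer genes tested; with an array left out they ran from 14 to 28, and 14 genes were called each time. The median of 1.94 over the 27 genes above background on all 3 Nrf1 controls became 1.57 with the slide block and 1.26 with normexp background correction and quantile normalization, and ran from 1.77 to 2.11 with an array left out. The Nrf2 median of -1.05 became -1.41 with scan date as a block and -0.40 with normexp, and ran from -1.30 to -0.87. The Keap1 median ran from 0.14 to 0.70, and scaling to the array median called 1 gene there, Nusap1.

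The 27 genes with a larger Nrf1 than Nrf2 effect became 0 with the slide block, 12 with the scan date block, and 15 either with no filter on background or with probes above background on all arrays, and ran from 14 to 27. The 3 with a larger Nrf1 than Keap1 effect became 15 with normexp, 6 with array quality weights, 1 with quantile normalization and 0 with no filter, with only the arrays compared, with the slide block or with the scan date block, and ran from 0 to 12. The 1 with a larger Keap1 than Nrf2 effect became 10 with array median scaling, 9 with array quality weights, 3 with the scan date block, 2 with quantile normalization and 0 with normexp, no filter, only the arrays compared or the slide block, and ran from 0 to 5. Except where stated, the cause was not tested.

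Uncalled Keap1 differences changed sign with an array left out. They reached 0.39 for Ect2 without KD 3, 1.38 for Top2a and 0.77 for Cdk1 without Control 3, and 0.67 for Foxm1 and 0.70 for Ccnb2 without KD 1. Without Control 1, Ccnb2 was at -0.05, Top2a at -0.26, Cdk1 at -0.20 and Foxm1 at -0.04. Without Control 2, Ect2 was at -0.24 and Cdk1 at -0.18. Without KD 1, Ect2 was at -0.26, without KD 2, Cdk1 at -0.19, and without KD 3, Ccnb2 was at -0.12, Cdk1 at -0.12 and Foxm1 at -0.32.

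With the replicate number as a block, which the numbers do not justify as a pairing, 29 genes were called in the Nrf1 line, 0 in the Nrf2 line and 0 in the Keap1 line, and the differences between effects gave 28, 6 and 1. Signals of dim genes limit the rest: 9 of 36 genes were not above background on all 3 Nrf1 controls, and 3 arrays a group limit the precision.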

Other observations

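Most of the replication genes measured in the Nrf1 line rose, and Mcm10, which helps to start the replication forks, was the 1 of 24 that fell. It went from 5.80 in the controls to 4.34 in CKO (log2 difference -1.46, SE 0.27, adjusted p = 0.00358 by limma). The subunits of the replicative helicase went the other way in the same livers, with Mcm3 at 1.54 (SE 0.35), Mcm4 at 1.65 (SE 0.25), Mcm6 at 2.10 (SE 0.34) and Mcm7 at 1.13 (SE 0.21). These genes were chosen after their values were seen, and what the Mcm10 probe reads was not tested.

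Cdk6, a G1 kinase, rose in the Nrf1 line by 0.95 and in the Keap1 line by 0.79. The lines share no arrays, but both tests took their error from the same fit to all arrays, so the tests are not independent. In the Keap1 line Cdk6 was the 1 called gene of the cell cycle lists, where 0.965% of all genes tested rose and 4.59% fell.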
